A study of Mus musculus with 82 samples.

Results

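The cytosolic ribosomal protein genes of the mouse, 80 coding genes on autosomes, were examined for peaks of 4 tagged T-box constructs. Members were chosen by name: symbols of the form Rpl or Rps with a number, plus Rpsa, Rplp0, Rplp1 and Rplp2. The names matched 84 genes, of which 4 on the X chromosome (Rpl10, Rpl36a, Rpl39 and Rps4x) were left out. The 80 members, 49 of the large and 31 of the small ribosomal subunit, stand among 20665 coding genes on autosomes. The rule uses names and chromosomes only.

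Eomes and Brachyury, DNA-binding proteins of the T-box family, act in the primitive streak of the gastrulating embryo, and the study put tagged forms of them back into mouse embryonic stem cells that lack both genes (dKO). Every group described here shares that double knockout, carried 1 construct switched on by doxycycline, and was grown as embryoid bodies, aggregates of differentiating stem cells, to day 5. Per the growth protocols, activin A at 30 ng/ml and doxycycline at 5 µg/ml were given from day 2 to day 5. The groups were EoGFP (Eomes with a GFP tag) and BraGFP (Brachyury with a GFP tag), pulled down with anti-GFP, and EoV5 (Eomes with a V5 tag) and EoVP16 (Eomes joined to the VP16 activation domain), pulled down with anti-V5. EoGFP and BraGFP had 2 libraries each, given as 1 list per construct, and EoV5 and EoVP16 had 1 library each, so no value below has a spread between replicates and no test was made. The forced expression of each construct, in cells without either factor of their own, limits how far these groups stand for the embryo. Libraries made without doxycycline were not used here, so whether a peak depends on the construct was not tested.

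Ribosomal proteins are the protein part of the ribosome, and each is made in about equal number to the others in growing cells. Their genes are short, sit in CpG-rich promoters and rank among the most strongly transcribed genes of most cells. Many of their transcripts start with a C followed by a run of pyrimidines, the 5′ terminal oligopyrimidine start that ties their translation to growth signals, and many of their promoters hold sites for ETS-family factors and for YY1. Several introns of these genes hold small nucleolar RNAs (snoRNAs), which guide the modification of ribosomal RNA. T-box proteins bind a short site with the core GGTGTG.

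Promoter windows of 9 members are given here because they span the binding patterns described later: Rpl15 and Rpl37 had a peak in every list, Rps21 in EoGFP, EoV5 and EoVP16, Rps27 in EoGFP and EoVP16, Rps10 in EoVP16 alone, Rpl31 in BraGFP and EoVP16, Rpl27 in EoGFP, BraGFP and EoVP16, and Rpl6 and Rpl10l in none. Each run is 220 bases, 200 before and 20 from the annotated transcript start on, 5′ to 3′ on the strand of the gene, from RefSeq on GRCm38.p6. Capitals mark CCGGAAG (an ETS site), AAGATGG (a YY1 site) and GGTGTG (the T-box core) or their reverse complements, and the first 5 transcribed bases where these are C and then 4 pyrimidines. Rpl15 lies at chr14:18270967-18271186 (- strand), Rpl37 at chr15:5116413-5116632 (+ strand), Rps21 at chr2:180257179-180257398 (+ strand), Rps27 at chr3:90213629-90213848 (- strand) and Rps10 at chr17:27635225-27635444 (- strand). Rpl31 lies at chr1:39367651-39367870 (+ strand), Rpl27 at chr11:101442045-101442264 (+ strand), Rpl6 at chr5:121204301-121204520 (+ strand) and Rpl10l at chr12:66284382-66284601 (- strand).
Rpl15: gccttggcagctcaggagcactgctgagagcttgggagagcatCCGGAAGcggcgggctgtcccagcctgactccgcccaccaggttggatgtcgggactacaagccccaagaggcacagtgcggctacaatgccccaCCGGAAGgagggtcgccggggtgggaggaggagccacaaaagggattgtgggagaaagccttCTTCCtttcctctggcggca
Rpl37: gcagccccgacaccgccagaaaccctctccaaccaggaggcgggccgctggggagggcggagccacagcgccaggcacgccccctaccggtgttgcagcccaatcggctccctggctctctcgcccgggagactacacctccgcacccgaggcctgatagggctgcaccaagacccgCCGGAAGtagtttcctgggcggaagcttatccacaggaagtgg
Rps21: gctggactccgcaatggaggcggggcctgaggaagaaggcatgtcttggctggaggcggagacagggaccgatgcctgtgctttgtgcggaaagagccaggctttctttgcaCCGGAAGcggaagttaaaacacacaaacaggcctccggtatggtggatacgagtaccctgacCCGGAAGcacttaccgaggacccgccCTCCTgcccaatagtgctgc
Rps27: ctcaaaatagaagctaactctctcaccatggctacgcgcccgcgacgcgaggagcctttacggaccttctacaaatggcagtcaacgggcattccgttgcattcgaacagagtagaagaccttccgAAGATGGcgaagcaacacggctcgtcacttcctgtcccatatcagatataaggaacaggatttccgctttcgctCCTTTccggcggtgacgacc
Rps10: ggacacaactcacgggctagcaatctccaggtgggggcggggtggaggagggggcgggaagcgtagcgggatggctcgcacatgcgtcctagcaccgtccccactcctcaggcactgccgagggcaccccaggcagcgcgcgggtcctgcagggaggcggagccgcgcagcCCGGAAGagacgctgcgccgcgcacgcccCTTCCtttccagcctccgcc
Rpl31: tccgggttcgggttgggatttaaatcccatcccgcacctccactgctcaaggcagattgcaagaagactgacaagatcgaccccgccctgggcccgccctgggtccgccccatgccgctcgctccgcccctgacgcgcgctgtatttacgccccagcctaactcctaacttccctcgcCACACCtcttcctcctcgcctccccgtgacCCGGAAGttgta
Rpl27: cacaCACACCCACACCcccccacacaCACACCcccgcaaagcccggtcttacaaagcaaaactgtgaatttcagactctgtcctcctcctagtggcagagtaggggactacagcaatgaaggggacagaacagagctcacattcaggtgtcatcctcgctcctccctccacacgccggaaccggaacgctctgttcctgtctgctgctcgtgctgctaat
Rpl6: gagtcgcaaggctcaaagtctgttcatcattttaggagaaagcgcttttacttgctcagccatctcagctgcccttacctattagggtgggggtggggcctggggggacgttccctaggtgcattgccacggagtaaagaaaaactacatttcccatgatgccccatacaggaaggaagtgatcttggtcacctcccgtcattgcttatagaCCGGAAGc
Rpl10l: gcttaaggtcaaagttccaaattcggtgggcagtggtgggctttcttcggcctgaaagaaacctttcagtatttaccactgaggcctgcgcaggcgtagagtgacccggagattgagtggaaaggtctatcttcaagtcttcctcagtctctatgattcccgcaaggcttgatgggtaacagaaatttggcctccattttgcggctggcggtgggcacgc

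Peaks of EoVP16 and EoGFP lay at the ends of ribosomal protein genes more often than at those of all coding genes. EoV5 peaks did so by a gap, in percentage points, that depended on the part of the list and the members counted. A gene was counted when the midpoint of a peak lay within 1 kb of either end of its RefSeq span. EoVP16 peaks met this rule at 70 of the 80 members, a share of 87.5% (95% Wilson interval 78.5 to 93.1), against 51.9% of all coding genes. EoGFP peaks met it at 55 members (68.75%, interval 57.9 to 77.8), against 43% of all coding genes. EoV5 peaks met it at 39 members (48.75%, interval 38.1 to 59.5), against 32.5%. With the taller 50% of the EoV5 list the count was 16 members (20%), against 12.2%, fewer peaks being left for members and all genes alike. Over the 52 members with no other coding gene end within 1 kb, the count with the full EoV5 list was 21 (40.4%, interval 28.2 to 53.9). That interval holds the 32.5% of all coding genes, but this background also includes genes with such a neighbour. BraGFP peaks met it at 24 members (30%, interval 21.1 to 40.8), against 23.7%, a background that lies inside the interval. The intervals cover the counting of genes only, and members that share a neighbouring gene or a promoter are not independent.

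**Figure D1:**
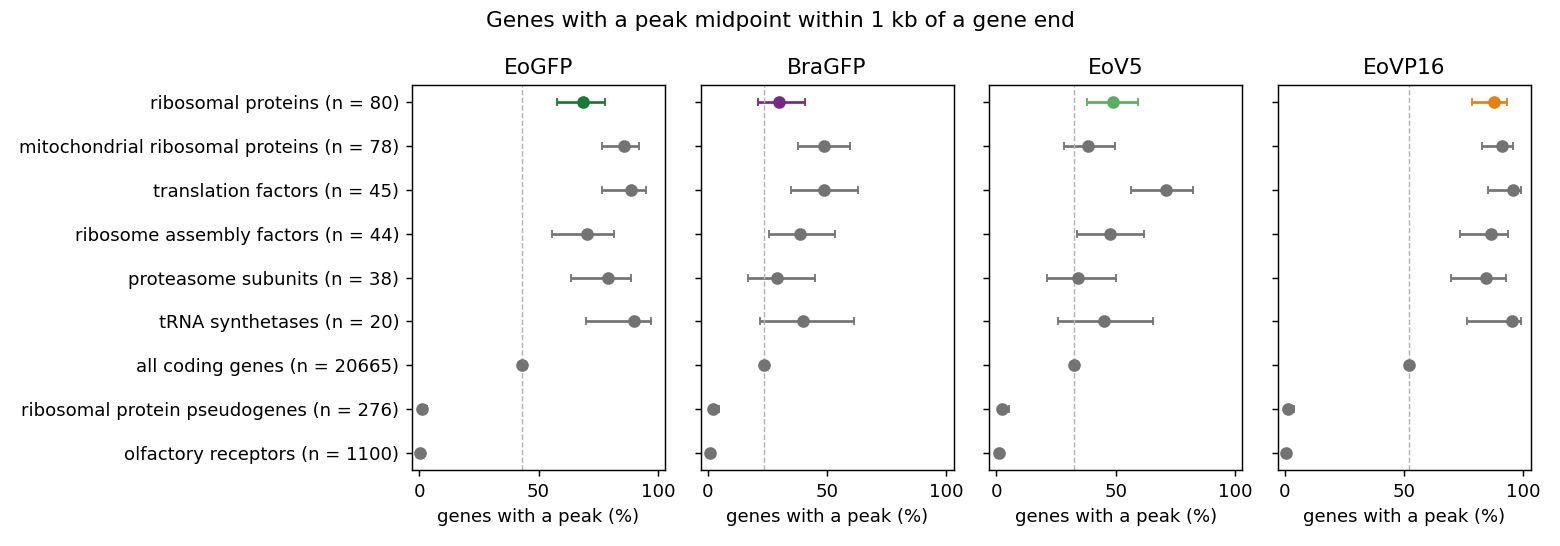
Share of genes with a peak midpoint within 1 kb of a gene end (horizontal axis, percent) in each of the 4 peak lists, for the ribosomal protein genes (coloured) and for other gene lists (grey), with 95% Wilson intervals as bars. The dashed line is the share over all coding genes; the ribosomal protein genes sit to its right by the widest gap in EoVP16 (87.5% against 51.9%) and within their interval of it in BraGFP (30% against 23.7%).

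Over a wider neighbourhood the gap to all coding genes was smaller in all 4 lists. Within 10 kb of the gene span, BraGFP peaks were found at 41 members (51.25%), below the 55.4% of all coding genes. EoGFP peaks within 10 kb were found at 70 members (87.5%, against 68%), EoV5 peaks at 58 (72.5%, against 64.7%) and EoVP16 peaks at 77 (96.25%, against 73.7%). The genes differ in length, with a median of 3206.5 bp for members and 17491 bp for all coding genes, so a 10 kb margin spans less sequence at a member than at most genes.

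Transcript starts are annotated in the RefSeq promoter table for 60 of the 80 members and for 16457 coding genes, and they allow the count to be made at the promoter itself. EoVP16 peaks had their midpoint within 1 kb of an annotated start at 54 of the 60 (90%, interval 79.9 to 95.3), against 55.4% of the genes in the table. EoGFP peaks did so at 40 (66.7%, interval 54.1 to 77.3), against 45.3%. BraGFP peaks did so at 18 (30%), against 24.3%. EoV5 peaks did so at 23 (38.3%, interval 27.1 to 51.0), against 33.8%, which is close to the background. The gap between EoV5 and its background was thus smaller at starts than at gene ends. At the far end, 9 of the 60 members had an EoV5 peak within 1 kb of where the gene stops (its finish), against 3.99% of the genes in the table, and 6 of these had none at a start, against 2.11%. An EoGFP peak lay at the finish of 8 members, against 4.38%, and 4 of them had none at a start, against 1.85%. EoVP16 peaks lay at the finish of 8 members, against 5.15%, of which 1 had none at a start, against 1.5%. BraGFP peaks lay at the finish of 2 members, against 3.34%, and neither had one at a start, against 2.24%. Among the EoV5 finish members, Rpl18, Rpl3l, Rpl4, Rps18 and Rps25 have another coding gene end within 1 kb of an end of theirs. Rpl34, Rps9, Rps15a and Rpsa do not. Among the EoGFP finish members only Rps15a and Rpsa lack such a neighbour. In EoVP16 Rpl13a, Rps15a and Rps19 lack one, and in BraGFP neither Rpl4 nor Rps18 does. Whether finish peaks belong to these neighbours was not tested.

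**Figure D2:**
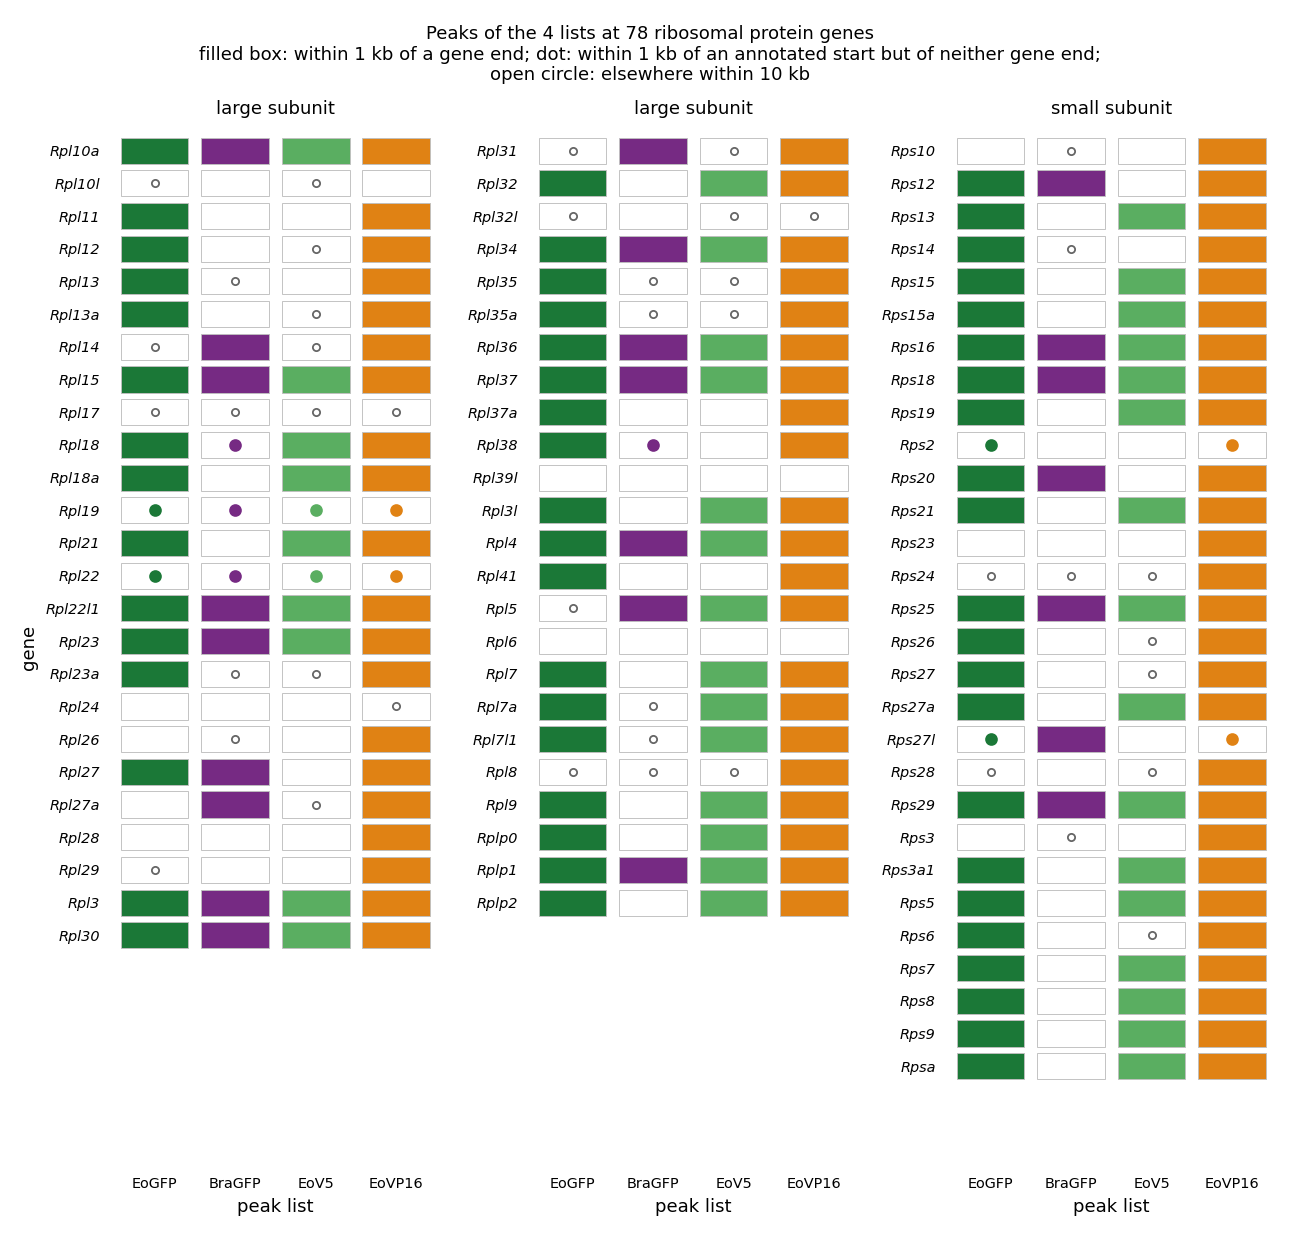
Peaks of the 4 lists (columns) at 78 of the 80 ribosomal protein genes (rows), with large-subunit genes in the left and middle panels and small-subunit genes on the right. Filled boxes are peaks within 1 kb of a gene end, dots are peaks within 1 kb of an annotated start but of neither gene end, and open circles are other peaks within 10 kb; the EoVP16 column is filled for 68 of the genes drawn and the BraGFP column for 23.

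The EoGFP and EoV5 lists were nested within the EoVP16 list at these genes. All 55 members with an EoGFP gene-end peak and all 39 with an EoV5 gene-end peak also had an EoVP16 one. Over all coding genes the corresponding shares were 94.3% and 94.0%, so the nesting itself is close to that of other genes. No member had an EoV5 gene-end peak without an EoVP16 one, against 1.96% of all coding genes, and 31 members had an EoVP16 gene-end peak without an EoV5 one, against 21.4%. Of the 70 members with an EoVP16 gene-end peak, 55.7% also had an EoV5 one. That is close to the 58.8% of all coding genes with an EoVP16 one. At annotated starts, 31 of the 60 members had an EoVP16 peak without an EoV5 one. The share was 22.9% of the genes in the table, counted whether or not they have an EoVP16 peak. EoV5 members were also EoGFP members in 38 of 39 cases (97.4%, against 89.3% of all genes), and those 38 made up 69.1% of the EoGFP members. BraGFP and EoGFP shared 18 members, which is 75% of the BraGFP and 32.7% of the EoGFP members, against 83.03% and 45.7% over all coding genes. Where 2 lists marked the same member, their peaks mostly overlapped each other by at least 1 bp: at 53 of 55 members for EoGFP and EoVP16, 37 of 39 for EoV5 and EoVP16, 37 of 38 for EoGFP and EoV5, and 18 of 18 for EoGFP and BraGFP. The same overlap over all coding genes is not given here, so it cannot be called a trait of the members.

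By pattern, 23 members (28.75%) had a gene-end peak in EoGFP, EoV5 and EoVP16 without BraGFP, the most frequent pattern, against 12.5% of all coding genes. A further 15 members (18.75%) had one in all 4 lists, against 15.4% of all coding genes: Rpl3, Rpl4, Rpl10a, Rpl15, Rpl22l1, Rpl23, Rpl30, Rpl34, Rpl36, Rpl37, Rplp1, Rps16, Rps18, Rps25 and Rps29. EoGFP with EoVP16 held 14 members (17.5%), against 8.95% of all coding genes. EoVP16 alone held 10 (12.5%), against 7.54%, among them Rpl8, Rpl26, Rpl28, Rpl29, Rps3 and Rps10. BraGFP without EoGFP was found at 6 members, among them Rpl5, Rpl14, Rpl27a and Rpl31, against 4.02% of all coding genes. No member had a gene-end peak of EoGFP alone or of EoV5 alone, patterns that are also rare over all coding genes (1.08% and 0.794%).

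A gene-end peak was missing from every list at 9 members (11.25%), against 43.1% of all coding genes. For 3 of these, Rpl19, Rpl22 and Rps2, the annotated start lies inside the RefSeq span and did carry peaks. Rpl19, a large-subunit protein, had start peaks in all 4 lists, with a summit pileup (height in fragments) of 66 in EoV5 (exact 95% Poisson interval 51.0 to 83.97) and 59 in EoVP16 (44.9 to 76.1). Rpl22, a large-subunit protein with a role in lymphocyte development, had them in all 4 lists, with 65 in EoV5 (50.2 to 82.8) and 112 in EoVP16 (92.2 to 134.8). Rps2, of the small subunit, had them in EoGFP and EoVP16, the latter with a pileup of 51 (37.97 to 67.1). The nearest midpoints to an end of Rpl17, which is not in the promoter table, lay at 1639 bp in EoGFP, 1520.5 in BraGFP, 2012.5 in EoV5 and 1615.5 in EoVP16.

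Counted at annotated starts, 6 of the 60 members (10%) had no peak in any list, against 41.1% of the genes in the table. They were Rpl3l, Rpl6, Rpl10l, Rpl24, Rpl32l and Rpl39l. Of these, Rpl6 and Rpl24 encode general large-subunit proteins, and the nearest EoVP16 midpoints lay at 11240 bp from an end of Rpl6 and at 2926 bp from an end of Rpl24. Rpl10l and Rpl39l are copies used in the male germ line and Rpl3l is a copy used in heart and skeletal muscle. Rpl39l had its nearest midpoint at 18207.5 bp in EoGFP and 18270 bp in EoVP16, and Rpl10l at 5308.5 bp in EoGFP and 55000.5 bp in EoVP16. Rpl3l had gene-end peaks in EoGFP, EoV5 (pileup 82, interval 65.2 to 101.8) and EoVP16 (65, interval 50.2 to 82.8), all at its finish, where Msrb1 has an end within 1 kb.

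The other paralogs carried peaks at their starts. Rpl22l1, the paralog of Rpl22, had start peaks in all 4 lists, with a pileup of 73 in EoV5 (57.2 to 91.8) and 70 in EoVP16 (54.6 to 88.4). Rpl7l1, a relative of Rpl7, had them in EoGFP, EoV5 (110, interval 90.4 to 132.6) and EoVP16 (90, interval 72.4 to 110.6). Rps27l, the p53-responsive copy of Rps27, had them in EoGFP and EoVP16 (64, interval 49.3 to 81.7), while its single gene-end peak, of BraGFP, was 393 bp wide, the narrowest BraGFP peak among the members. Without the 6 paralogs of restricted or special use (Rpl3l, Rpl7l1, Rpl10l, Rpl22l1, Rpl39l and Rps27l), EoVP16 gene-end peaks lay at 67 of 74 members (90.5%) and EoGFP gene-end peaks at 52 (70.3%).

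Both subunits showed similar shares. Of the 49 large-subunit members, gene-end peaks were found at 33 in EoGFP (67.3%), 16 in BraGFP (32.7%), 23 in EoV5 (46.9%) and 41 in EoVP16 (83.7%). Of the 31 small-subunit members, they were found at 22 in EoGFP (71.0%), 8 in BraGFP (25.8%), 16 in EoV5 (51.6%) and 29 in EoVP16 (93.5%). The Wilson intervals of the subunits overlapped in each list.

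The stalk of the large subunit, which recruits translation factors, is built from the products of Rplp0, Rplp1 and Rplp2. All 3 genes had gene-end peaks in EoGFP, EoV5 and EoVP16, as did 28% of all coding genes, and Rplp1 also had one in BraGFP. Rplp0 had pileups of 70 in EoV5 (54.6 to 88.4) and 74 in EoVP16 (58.1 to 92.9), and Rplp2 had 71 in EoV5 (55.5 to 89.6) and 70 in EoVP16 (54.6 to 88.4). Rplp1 had a pileup of 116 in EoV5 (95.9 to 139.1) and 61 in EoVP16 (46.7 to 78.4). Rps27a, which encodes ubiquitin fused to a small-subunit protein, had peaks in EoGFP, EoV5 (117, interval 96.8 to 140.2) and EoVP16 (74, interval 58.1 to 92.9) and none in BraGFP.

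Peaks at the starts of members covered the start in every case, at 40 of 40 peaks in EoGFP, 18 of 18 in BraGFP, 23 of 23 in EoV5 and 54 of 54 in EoVP16. These peaks were chosen for a midpoint within 1 kb of the start, and the same share over all genes is not given here. The median peak midpoint lay 26.25 bp upstream of the start in EoGFP (a signed distance of -26.25 bp), at -64.5 bp in EoV5 and at -31.5 bp in EoVP16, and 9 bp downstream in BraGFP. Over all genes in the table the medians were downstream of the start, at 30.25 bp in EoGFP, 27 in BraGFP, 49 in EoV5 and 57 in EoVP16. The EoV5 and EoVP16 lists also give each peak's summit. The median EoVP16 summit at members lay at -79 bp, with 39 upstream and 15 downstream, against -18 bp over all genes. The median EoV5 summit lay at -43 bp, with 14 upstream and 9 downstream, against -9 bp over all genes.

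**Figure D3:**
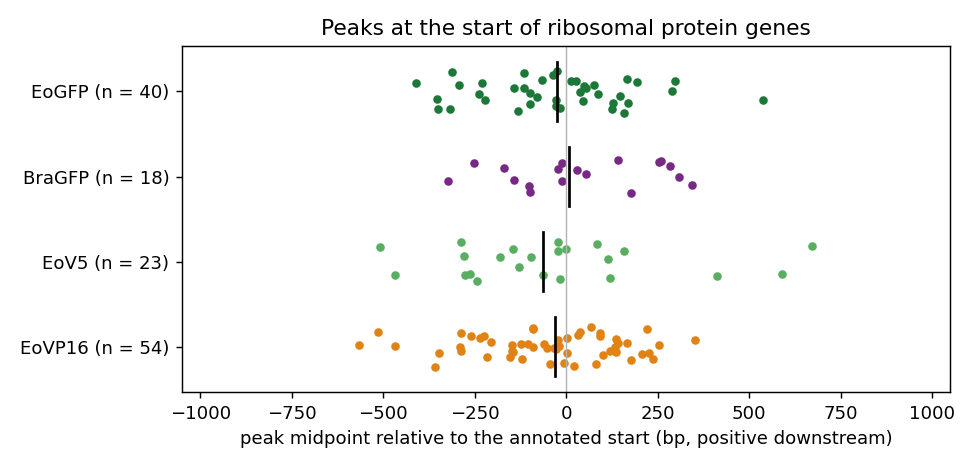
Distance of each peak midpoint from the annotated transcript start of its ribosomal protein gene (horizontal axis, bp, positive downstream), one point per peak, for each list; black bars are medians and the vertical spread of points is only for legibility. Points gather around the start in all 4 lists, with medians of -26.25 bp in EoGFP, 9 in BraGFP, -64.5 in EoV5 and -31.5 in EoVP16.

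The heights of gene-end peaks at members were those of gene-end peaks in general. In EoV5 the median summit pileup of the tallest gene-end peak was 87 at 39 members (range 63 to 421), and 87 over all 6709 coding genes with one. In EoVP16 it was 61.5 at 70 members (range 36 to 202), against 63 over 10717 genes. The lists have minimum pileups of 60 and 36, and the lower quartile at members was 70.5 in EoV5 and 53 in EoVP16. The lists were not scaled to each other, so EoV5 and EoVP16 heights cannot be compared as amounts of binding.

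In EoV5, 4 of the 6 members with the tallest gene-end peak had it at the finish of the gene; in EoVP16 only the tallest of the 6 was at a finish, those of Rpl5 and Rps16 were at starts, and Rpl7, Rpl3 and Rps29 have no strand in the table. Rps15a, of the small subunit, had the tallest peak in both lists, at its finish. That peak reached 421 fragments in EoV5 (381.7 to 463.2), and the EoVP16 peak there reached 202 (175.1 to 231.9). At its start Rps15a had an EoVP16 peak of 54 (40.6 to 70.5) and no EoV5 peak. Rps25 had an EoV5 pileup of 211 (183.5 to 241.5) at its finish and 76 (59.9 to 95.1) at its start. Rps9 had 181 (155.6 to 209.4) and Rpsa, which encodes a small-subunit protein that also acts as a laminin receptor, had 133 (111.4 to 157.6), both at the finish and with no EoV5 peak at the start. No other coding gene has an end within 1 kb of Rps15a, Rps9 or Rpsa, whereas Trappc4 and Ccdc84 have one near Rps25.

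Over the members with annotated starts, EoV5 peaks at starts had a median pileup of 76 (63 to 167, 23 peaks, the highest being that of Rpl34, whose summit lies in the gene) and those at finishes only had 116 (68 to 421, 9 peaks). Over all genes in the table the medians were 85 at starts and 95 at finishes. In EoVP16 the medians at members were 59 at starts (36 to 147, 54 peaks) and 68.5 at finishes (37 to 202, 8 peaks), against 63 and 56 over all genes. The ranges overlapped in both lists.

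Among EoV5 peaks with their midpoint at a start, that of Rpl34 had the highest pileup, 167 fragments (142.6 to 194.3), but its summit lay 1812 bp downstream of the start, inside the gene. Next came Rpl5 with 132 (110.4 to 156.5) and a summit 239 bp downstream. Rpl5 encodes the large-subunit protein that carries 5S ribosomal RNA and binds Mdm2. It also stood high in EoVP16, with 147 (124.2 to 172.8), and had a BraGFP but no EoGFP gene-end peak, the nearest EoGFP midpoint lying at 6524 bp. Rps16 had 114 in EoV5 (94.0 to 136.9) and 136 in EoVP16 (114.1 to 160.9), and Rpl37 had 124 (103.1 to 147.8) and 121 (100.4 to 144.6). Without an annotated start, Rpl7 had 126 in EoV5 (105.0 to 150.0) and 157 in EoVP16 (133.4 to 183.6), Rpl3 had 131 (109.5 to 155.5) and 142 (119.6 to 167.4), and Rps29 had 118 (97.7 to 141.3) and 123 (102.2 to 146.8).

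**Figure D4:**
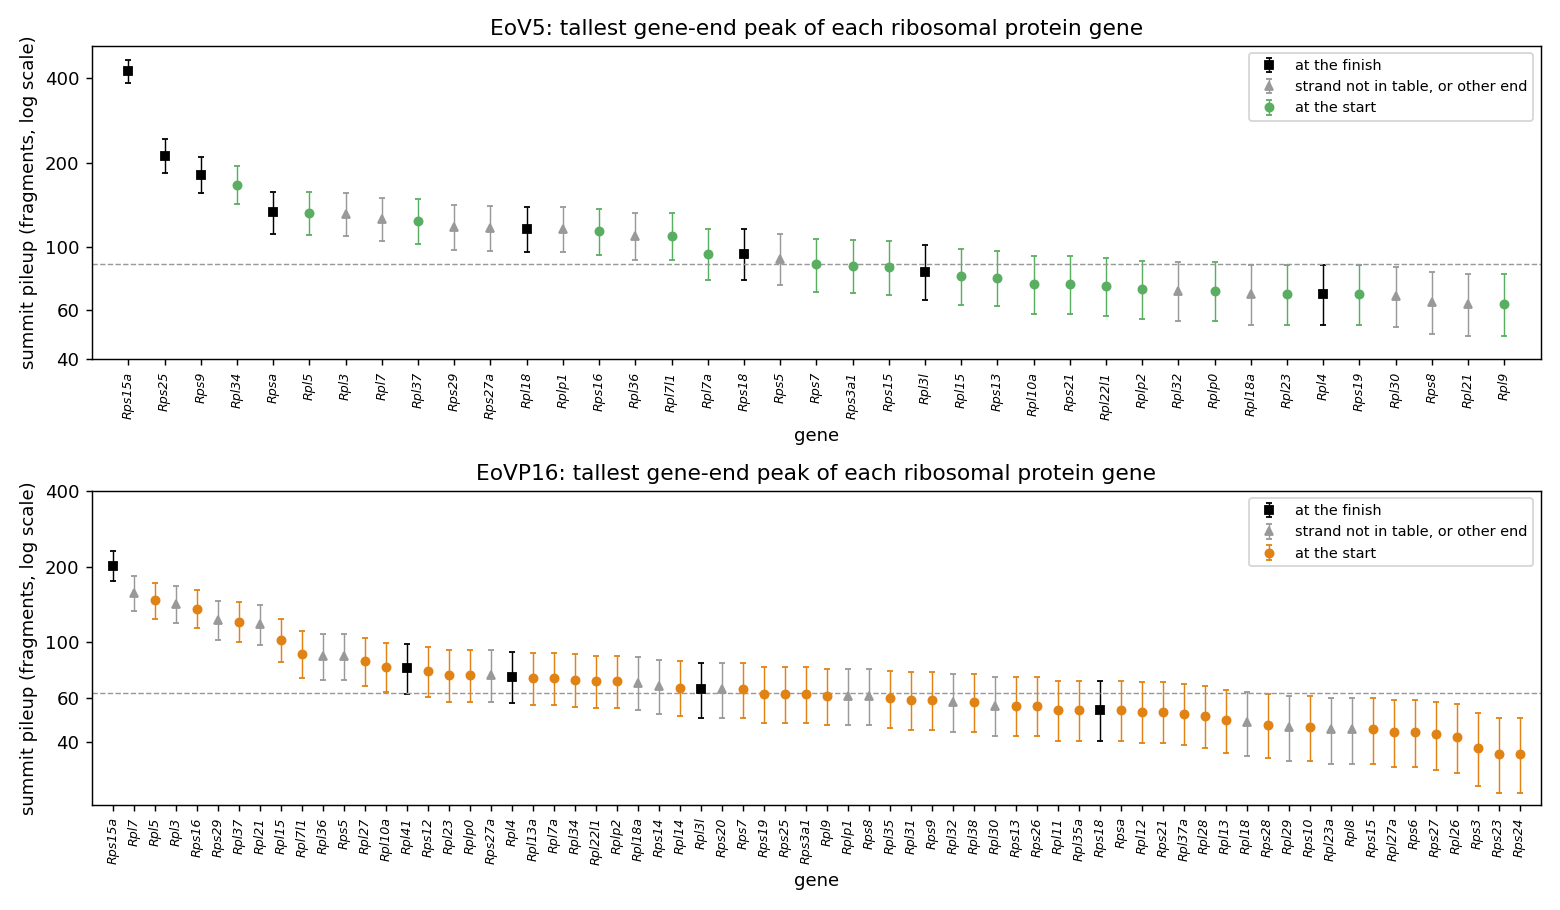
Summit pileup (vertical axis, fragments, log scale) of the tallest gene-end peak of ribosomal protein genes in EoV5 (39 genes, upper panel) and EoVP16 (68 of 70 genes, lower panel), with exact 95% Poisson intervals as bars. Circles are peaks at the start and squares peaks at the finish. Triangles are peaks where the strand is not in the table, or at the other end of the span, as for Rpl18 in EoVP16. The dashed line is the median over all coding genes with a gene-end peak (87 and 63); the upper panel is led by finishes, with Rps15a at 421.

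Members that a second list also held had higher median EoVP16 pileups, as did genes in general. The median EoVP16 pileup was 65 at the 55 members also in EoGFP and 46 at the 15 that were not, against 68 and 47 over all coding genes. It was 70 at the 39 members also in EoV5 and 53 at the 31 that were not (75 and 51 over all coding genes), and 73 at the 23 members also in BraGFP and 58 at the 47 that were not (77 and 56). The ranges overlapped in each split. Across the 39 members with both peaks, EoV5 and EoVP16 pileups had a Spearman's rho of 0.268 and a Pearson's r of 0.438 on the log2 scale, against 0.498 and 0.507 over 6304 coding genes. These are across genes of the same libraries and are given as a description.

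The EoGFP and BraGFP lists hold no height, so only widths can be given. The median width of the widest gene-end peak was 1357 bp at members in EoGFP, against 1245.5 bp over all coding genes, and 1109.5 bp in BraGFP, against 1035 bp. It was 1414 bp in EoV5, against 1547 bp, and 1341 bp in EoVP16, against 1368 bp. The widest EoGFP peaks were those of Rps15a at its finish (3211 bp), Rpl7 (3132 bp), Rpl37 (2553 bp) and Rpl7a (2183 bp). The widest BraGFP gene-end peaks were those of Rpl10a (1817 bp), Rpl3 (1538 bp), Rpl27a (1435 bp), Rps29 (1427 bp), Rps25 (1421 bp), Rpl36 (1406 bp), Rpl4 (1375 bp) and Rps12 (1280 bp).

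In EoGFP the last member inside the 1 kb threshold was Rpl38, with a midpoint 837.5 bp from an end, and the first outside was Rps27l at 1510 bp. In BraGFP these were Rpl4 at 921 bp and Rpl38 at 1105.5 bp, in EoV5 Rplp1 at 745 bp and Rpl22 at 1448.5 bp, and in EoVP16 Rpl38 at 880.5 bp and Rpl22 at 1427 bp.

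Neighbouring genes share some of these ends. Another coding gene has an end within 1 kb of an end of 28 members, and the shares with a peak were 82.1% in EoGFP, 32.1% in BraGFP, 64.3% in EoV5 and 92.9% in EoVP16. The other 52 members had 61.5% (interval 47.96 to 73.5), 28.8% (18.3 to 42.3), 40.4% (28.2 to 53.9) and 84.6% (72.5 to 92.0). The shares of all coding genes, 43%, 23.7%, 32.5% and 51.9%, lay inside the interval in BraGFP and EoV5. These shares include genes with such a neighbour, and a background without them is not given here. The part of neighbouring promoters in the counts was not tested. A snoRNA gene lies inside 28 members, which hold 57 of them together. Those hosts had a gene-end peak at 75% in EoGFP, 35.7% in BraGFP, 57.1% in EoV5 and 89.3% in EoVP16, against 65.4%, 26.9%, 44.2% and 86.5% of the 52 members without one, with overlapping intervals in each list.

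The promoter windows of the 60 members in the table, 300 bases from 250 before to 50 after the start, were searched for short motifs on both strands, and a gene with several annotated starts was counted when any of its windows held the motif. The T-box motif GGTGTGA was found at 0 of the 60, against 4.32% of 16457 genes, and its core GGTGTG, which every GGTGTGA contains, at 5 (8.33%), against 20.7%. The sequence CAGGTG, which contains the first 4 letters of the core and overlaps it where TG follows, was found at 6 (10%), against 22.5%. Rpl27 and Rpl31, printed above with 3 and 1 copies of the core, both had BraGFP and EoVP16 peaks. Of the 18 members with a BraGFP start peak, 2 held the core (11.1%), and of the 42 without, 3 did (7.14%). For EoVP16 the counts were 4 of 54 (7.41%) and 1 of 6 (16.7%). For EoGFP they were 2 of 40 (5%) and 3 of 20 (15%), and for EoV5 1 of 23 (4.35%) and 4 of 37 (10.8%). A match is a description of letters in this window, and the absence of one says nothing about binding.

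Other motifs were frequent. The ETS site CCGGAAG was found at 25 members (41.7%), against 13.3% of all genes in the table, including both copies printed for Rpl15 and both for Rps21. The YY1 site AAGATGG, whose first 3 letters can coincide with the last 3 of CCGGAAG, was found at 10 (16.7%), against 7.26%. TGCGCA, the core of NRF1 sites, was found at 12 (20%), against 11.1%, and GGGCGG, of SP factors, at 36 (60%), against 50.3%. CCAAT was found at 17 (28.3%), against 42.3%, and TATAAA at 6 (10%), against 15.0%. A transcript start of C and then 4 pyrimidines was found at 14 (23.3%), against 2.70%, among them the starts printed for Rpl15, Rps21, Rps27 and Rps10.

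The ETS site was found with and without a start peak in each list. It was found at 17 of the 40 members with an EoGFP start peak (42.5%) and at 8 of the 20 without (40%), at 8 of 18 with a BraGFP start peak (44.4%) and 17 of 42 without (40.5%), at 9 of 23 with an EoV5 start peak (39.1%) and 16 of 37 without (43.2%), and at 23 of 54 with an EoVP16 start peak (42.6%) and 2 of 6 without (33.3%). The YY1 site was split less evenly than the ETS site in EoGFP. It was found at 10 of the 40 members with an EoGFP start peak (25%) and at 0 of the 20 without. For YY1 the shares were 18.5% of 54 with an EoVP16 start peak and 0 of 6 without, 21.7% of 23 with an EoV5 start peak and 13.5% of 37 without, and 11.1% of 18 with a BraGFP start peak and 19.0% of 42 without. GGGCGG was more frequent with a start peak in each list. Its shares with and without one were 67.5% and 45% in EoGFP and 77.8% and 52.4% in BraGFP. They were 73.9% and 51.4% in EoV5, and 64.8% of 54 and 16.7% of 6 in EoVP16. None of the splits given was tested, and those of the remaining motifs are not given here. Rpl6, with no peak in any list, held 1 ETS site just after its start. In composition, the windows had a median CpG observed-over-expected ratio of 0.890, against 0.586 over all genes, and a median GC content of 57.7%, against 56.7%. The part of base composition in the peak counts was not tested.

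**Figure D5:**
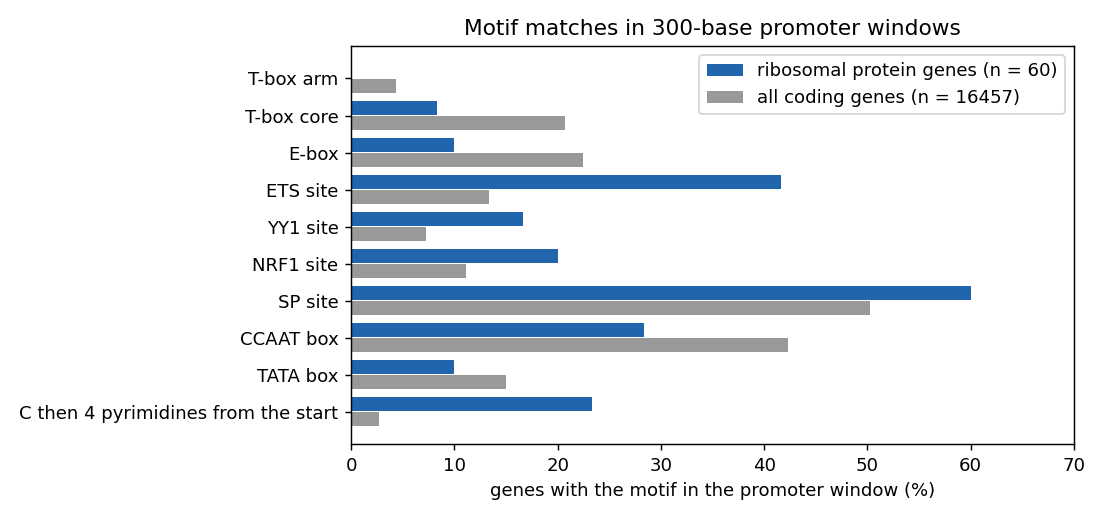
Share of genes with a motif in the 300-base promoter window (horizontal axis, percent, bars from 0) for the 60 ribosomal protein genes in the promoter table and for all 16457 genes in it. ETS sites (41.7% against 13.3%) and pyrimidine starts (23.3% against 2.70%) stand above all genes, and the T-box core (8.33% against 20.7%) below.

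High shares in EoGFP and EoVP16 were shared by other gene lists of protein synthesis and turnover. The mitochondrial ribosomal proteins, which build the separate ribosome of mitochondria (78 genes), had gene-end peaks at 85.9% in EoGFP, 48.7% in BraGFP, 38.5% in EoV5 and 91.0% in EoVP16. Initiation and elongation factors (45 genes) had them at 88.9%, 48.9%, 71.1% and 95.6%, and ribosome assembly factors (44 genes) at 70.5%, 38.6%, 47.7% and 86.4%. The tRNA synthetases (20 genes) had 90%, 40%, 45% and 95%, and the subunits of the proteasome, the protein-degrading complex (38 genes), had 78.9%, 28.9%, 34.2% and 84.2%. Ribosomal protein genes thus stood below the mitochondrial ribosomal proteins by point value in EoGFP, BraGFP and EoVP16 and above them in EoV5, with overlapping intervals in all 4 lists.

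At annotated starts, mitochondrial ribosomal proteins had start peaks at 92.8% of 69 genes in EoGFP, 49.3% in BraGFP, 42.03% in EoV5 and 98.6% in EoVP16. Translation factors had 82.9%, 48.6%, 74.3% and 97.1% of 35 genes. The ribosomal protein genes, at 66.7%, 30%, 38.3% and 90%, were lower than both lists in each of the 4. Their interval lay apart from that of the mitochondrial ribosomal proteins in EoGFP (54.1 to 77.3 against 84.1 to 96.9). It lay apart from that of the translation factors in EoV5 (27.1 to 51.0 against 57.9 to 85.8). The intervals overlapped in the other comparisons with both lists. Proteasome subunits had 80.6%, 35.5%, 25.8% and 87.1% of 31 genes, below the ribosomal protein genes in EoV5 and EoVP16. Ribosome assembly factors had 80.6%, 41.7%, 50% and 94.4% of 36 genes, and the tRNA synthetases 100%, 38.5%, 46.2% and 100% of 13 genes. The differences between lists were not tested. At the other extreme, 1100 olfactory receptor genes, expressed mainly in the nose, had gene-end peaks at 0.273% in EoGFP, 0.818% in BraGFP, 1.09% in EoV5 and 0.636% in EoVP16. The 276 ribosomal protein pseudogenes named with -ps, copies inserted elsewhere in the genome that share much of the coding sequence, had 1.09%, 2.17%, 2.54% and 1.45%. Neither expression nor chromatin marks were used here, so the activity of these promoters was not measured.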

How the data were processed

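The submitters' processing notes name MACS2 2.1.1.20160309.4, bedtools 2.27.0, Bowtie2 2.3.4, SAMtools 1.3.1 and Picard 1.56.0 and the build mm10/GRCm38, without order, settings or control. The authors deposited peak positions (a measure of another kind than signal) for each construct. No header comes with the EoV5 and EoVP16 lists as deposited, and the columns follow a MACS2 table: signal is the summit pileup in fragments, and the deposited ratio is fold enrichment at the summit. The deposited −log10 p and q values were not used. Minimum pileups of 120 (EoGFP), 40 (BraGFP), 60 (EoV5) and 36 (EoVP16) come from the names the authors gave the lists. The depth of the libraries is unknown, and how the 2 GFP libraries of a construct were joined is not stated. Whether positions of the GFP lists count from 0 or 1 is not stated, which could shift a midpoint by up to 1 bp.

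After repeated entries and peaks off the 19 autosomes were left out, 29789 EoGFP, 27216 BraGFP, 37545 EoV5 and 35638 EoVP16 peaks were used. Gene spans, starts and promoter windows came from RefSeq tables of GRCm38.p6. The span table gives no strand, so starts and strand were taken from the promoter table, which does not list 20 members. Counts were computed with Python 3.11.15, pandas 2.3.3 and scipy 1.17.1, and the distance code was tested on simulated data. Shares carry Wilson and pileups exact Poisson intervals at 95%, for counting error only.

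Members and gene lists were chosen with earlier results of these data known. The pseudogene list, counts at starts and finishes by list, and the choice of printed windows were added after the data were seen. Members named with values followed a rule: those with no gene-end peak, the 8 widest BraGFP, 6 tallest EoV5, 6 tallest EoVP16 and 4 widest EoGFP, up to 6 found in 1 list, stalk genes, Rpsa, Rps27a and paralogs. Any member named beyond this rule was picked once its values were known. Alternatives covered windows, peak measure, thresholds, list size, gene end, members and neighbours. For 2 members, values of their own are not reported here, though they are in the counts.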

Additional observations from a re-analysis of the deposited data

How the results depend on the processing

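Under 112 alternative values for 46 results, 104 stayed within 1.5 times the count given or, for shares and median pileups, inside their 95% interval. Among these, members with a peak in all 4 lists went from 15 to 10 at 500 bp and 18 at 2 kb, and members with none from 9 to 13 and 6. With the taller 50% of the EoV5 list, 16 members had a gene-end peak (20%, against 12.2% of all coding genes) and 27 had one within 10 kb. For olfactory receptors, whose counts are small, 500 bp gave 3 genes in BraGFP and 3 in EoVP16, and 2 kb gave 8 in EoGFP, 18 in BraGFP, 22 in EoV5 and 12 in EoVP16. The summit in place of the midpoint was added after seeing the data. No paired analysis was possible because each construct has 1 peak list and its columns carry no replicate numbers. Leaving out a replicate could not be run, since the 2 GFP libraries of a construct stand in 1 list and the V5 constructs have 1 library each. Depth is unknown, so a missing peak means only that none passed the minimum pileup, which differs between lists.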
